A study of Saccharomyces cerevisiae and Kluyveromyces marxianus with 18 samples.

Results

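The genes described here are 31 subunit genes of the proteasome, named PRE, PUP, SCL1, RPT or RPN, and the gene of their transcriptional activator, RPN4, in 2 yeasts. They were chosen as the rows of the deposited tables whose S. cerevisiae S288C entry is 1 of 32 listed loci. All 32 were found among 6171 S. cerevisiae genes, and 31 among 5330 Kluyveromyces marxianus genes, where no row carried the RPN4 entry. Values of RPN4 are therefore from S. cerevisiae alone. RPN13 was not a listed locus and is counted with other proteasome genes.

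Poly(A) RNA was sequenced from 18 chemostat cultures, 2 for each of 9 groups. The strains were the wild-type K. marxianus CBS6556 and the wild-type S. cerevisiae CEN.PK113-7D, a laboratory strain, grown at a dilution rate of 0.1 per hour and pH 6 on synthetic medium with urea and antifoam. Anaerobic cultures without any supplement (none) were grown for S. cerevisiae. The anaerobic T cultures received 420 mg/L Tween 80, a source of unsaturated fatty acid, and the anaerobic TE cultures received it together with 10 mg/L ergosterol. The O2-limited cultures had the TE medium. All of these had 20 g/L glucose. The aerobic cultures had 7.5 g/L glucose and 10 mg/L ergosterol without Tween 80, so that TE against O2-limited is the comparison in which the medium was the same and the oxygen supply differed. Titles carry a run code. It is shared by both groups for T against TE in K. marxianus and for none against TE in S. cerevisiae, and in the remaining comparisons run and group cannot be told apart.

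The 26S proteasome degrades proteins tagged with ubiquitin. Its 20S core is a stack of rings of alpha subunits, which gate the entry, and of beta subunits, some of which carry the proteolytic sites. The 19S regulatory particle caps the core with a ring of ATPases (RPT1 to RPT6), which unfold the substrate, and with non-ATPase subunits of the base and the lid (the RPN genes), which bind ubiquitin and remove it. In S. cerevisiae the short-lived zinc-finger protein Rpn4 binds the proteasome-associated control element (PACE) before the subunit genes and is itself degraded by the proteasome, a feedback loop that couples subunit transcription to proteasome activity.

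The promoters of the S. cerevisiae members were read from the RefSeq genome of strain S288C (assembly R64), from 250 bases before to 50 bases after each start codon. The sequences are therefore those of the reference strain and not of CEN.PK113-7D. The 9 letters GGTGGCAAA, searched on both strands, stood in the promoters of 27 of 31 subunit genes (87.1%), against 72 of 6001 promoters of all protein-coding genes (1.2%). The first 6 of them, GGTGGC, a part of the same motif, stood in 28 of 31 (90.3%), against 416 of 6001 (6.93%). The 9 letters are those of PACE, already known from these genes, so the shares describe the promoters and are not a test. The promoters of all genes include those of the members. The 27 matches of the 9 letters lay between 75 and 174 bases before the start codon (median 111), 19 of them on the strand of the gene and 8 on the opposite strand. All 6 ATPase genes had the 9 letters, as did 6 of 7 alpha ring, 6 of 7 beta ring and 9 of 11 other regulatory-particle genes. PRE5, PUP1 and RPN8 held neither run of letters in this window, and RPN10 held only the 6-letter run. The window before RPN4 held neither. Windows of the genes that recur in the results are printed on the strand of the gene, with the matched letters in capitals. PRE7 and PRE1 had the highest log2 fold changes in K. marxianus TE against O2-limited cultures, PUP2 and PRE3 had the lowest in S. cerevisiae T against TE cultures, RPT1 and RPN1 fell where most K. marxianus subunits rose, RPN2 is the large partner of RPN1, and RPN10 shows the shorter match.
PRE7 (chrII:141150-141178, + strand): aaactcaaagGGTGGCAAAaacaagcggt
PRE1 (chrV:177683-177711, + strand): aaatctttacGGTGGCAAAaaataaagaa
PUP2 (chrVII:999226-999254, - strand): aaccaagaccGGTGGCAAAagagtaacct
PRE3 (chrX:435035-435063, + strand): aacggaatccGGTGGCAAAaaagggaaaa
RPT1 (chrXI:174048-174076, + strand): attaccgaatTTTGCCACCcgaaaactaa
RPN1 (chrVIII:164838-164866, - strand): tgtgttttacGGTGGCAAAaggcgagcac
RPN2 (chrIX:220801-220829, - strand): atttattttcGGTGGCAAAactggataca
RPN10 (chrVIII:498971-498996, + strand): gcgggttttcGCCACCggaatttaca
In RPT1 and RPN10 the match is on the opposite strand, so the printed letters are the reverse complement of the motif. A match of letters describes the sequence and does not show binding.

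**Figure D1:**
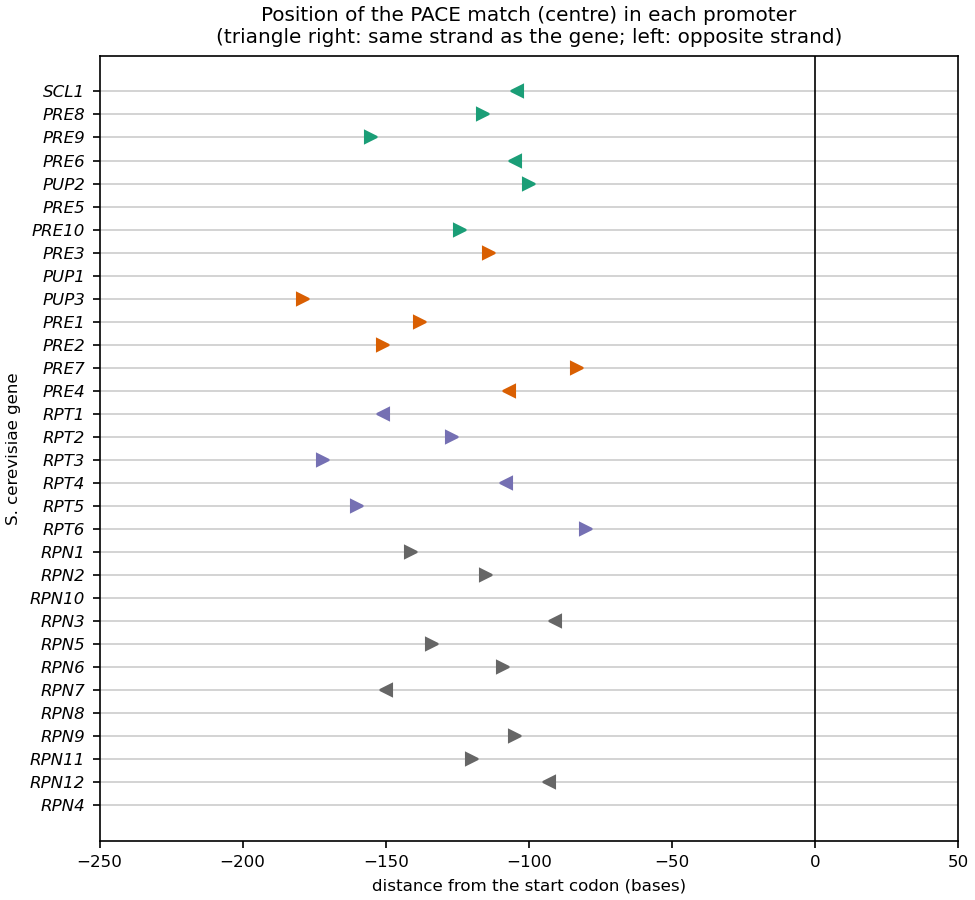
Position of the 9-letter PACE match in the promoter of each of 32 S. cerevisiae genes, in bases from the start codon (line at 0), with the alpha ring in green, the beta ring in orange, the ATPase ring in purple and the other regulatory-particle genes in grey. The 27 matches sit between 75 and 174 bases before the start codon, and 5 genes (PRE5, PUP1, RPN8, RPN10 and RPN4) have none.

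The total counts ranged from 6510449 to 10660870 in K. marxianus and from 2849618 (none replicate 2) to 13112466 in S. cerevisiae, and each subunit gene passed the filter on low counts in both species. Replicates of 8 groups had a Pearson's r between 0.953 and 0.997 across genes, but those of the S. cerevisiae none group had 0.749. In the none group, 16 of 31 subunit genes differed by at least 1 log2 unit between the replicates, against 54.1% of all genes. In each of the other groups 0 of 31 did, against at most 9.37% of all genes. As a check of the oxygen labels, ANB1, the hypoxic form of translation factor eIF-5A, had 646 and 680 CPM (counts scaled to library size by the TMM method) in S. cerevisiae TE cultures, against 5.49 and 1.40 CPM in O2-limited and 0.583 and 0.136 CPM in aerobic cultures. ERG11, also listed for this check, was called lower in S. cerevisiae O2-limited and TE against aerobic cultures (log2 fold change -2.99 and -0.73). It was called higher in TE against O2-limited cultures (2.26). In K. marxianus, where ANB1 was not tested, ERG11 was called higher in each of these comparisons (2.47, 3.09 and 0.62). In these bulk libraries, a change in the RNA per cell and a change in the share of cells that carry it cannot be told apart. The labels call the 2 cultures of a group biological replicates.

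The subunit genes were abundantly expressed in all groups. Per kilobase of counted gene length, their median level in K. marxianus was 266 and 267 CPM per kb in T, 275 and 281 in TE, 181 and 187 in O2-limited and 219 and 218 in aerobic cultures. In S. cerevisiae it was 345 and 243 CPM per kb in none, 283 and 297 in T, 279 and 294 in TE, 270 and 302 in O2-limited and 333 and 331 in aerobic cultures. In each library these medians lay between the 80.5th and the 90.6th percentile of all genes tested.

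Core genes were set at higher levels than regulatory-particle genes in each library. The median of the 14 core genes divided by the median of the 17 regulatory-particle genes, both per kilobase, was 1.76 ± 0.0223 in TE and 1.29 ± 0.0298 in O2-limited cultures of K. marxianus (SD, n = 2 each), against 1.42 ± 0.0182 in aerobic ones. In S. cerevisiae the ratio was 1.87 ± 0.109 in TE and 1.87 ± 0.197 in O2-limited cultures (SD, n = 2 each), against 1.44 ± 0.0744 in aerobic ones. The single genes spread widely around these medians. In aerobic S. cerevisiae the level ran from 154 ± 0.0655 CPM per kb for RPN10, a ubiquitin receptor, to 621 ± 7.56 CPM per kb for PRE1, a beta ring subunit (SD, n = 2). In aerobic K. marxianus it ran from 24.8 ± 0.735 CPM per kb for RPT1, an ATPase, to 500.03 ± 9.33 CPM per kb for SCL1, an alpha ring subunit (SD, n = 2). The next lowest K. marxianus gene, RPN1, had 106 ± 4.57 CPM per kb. The counted K. marxianus model of RPT1 is 1085 bases long, against 1404 bases for the S. cerevisiae gene. The models of RPN3, RPN2 and RPT3 are shorter still beside S. cerevisiae, at 58.6%, 58.9% and 62.7% of its lengths. In all, 9 of the 31 models differ by more than 10% in length between the annotations. How far the models set these levels was not tested.

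**Figure D2:**
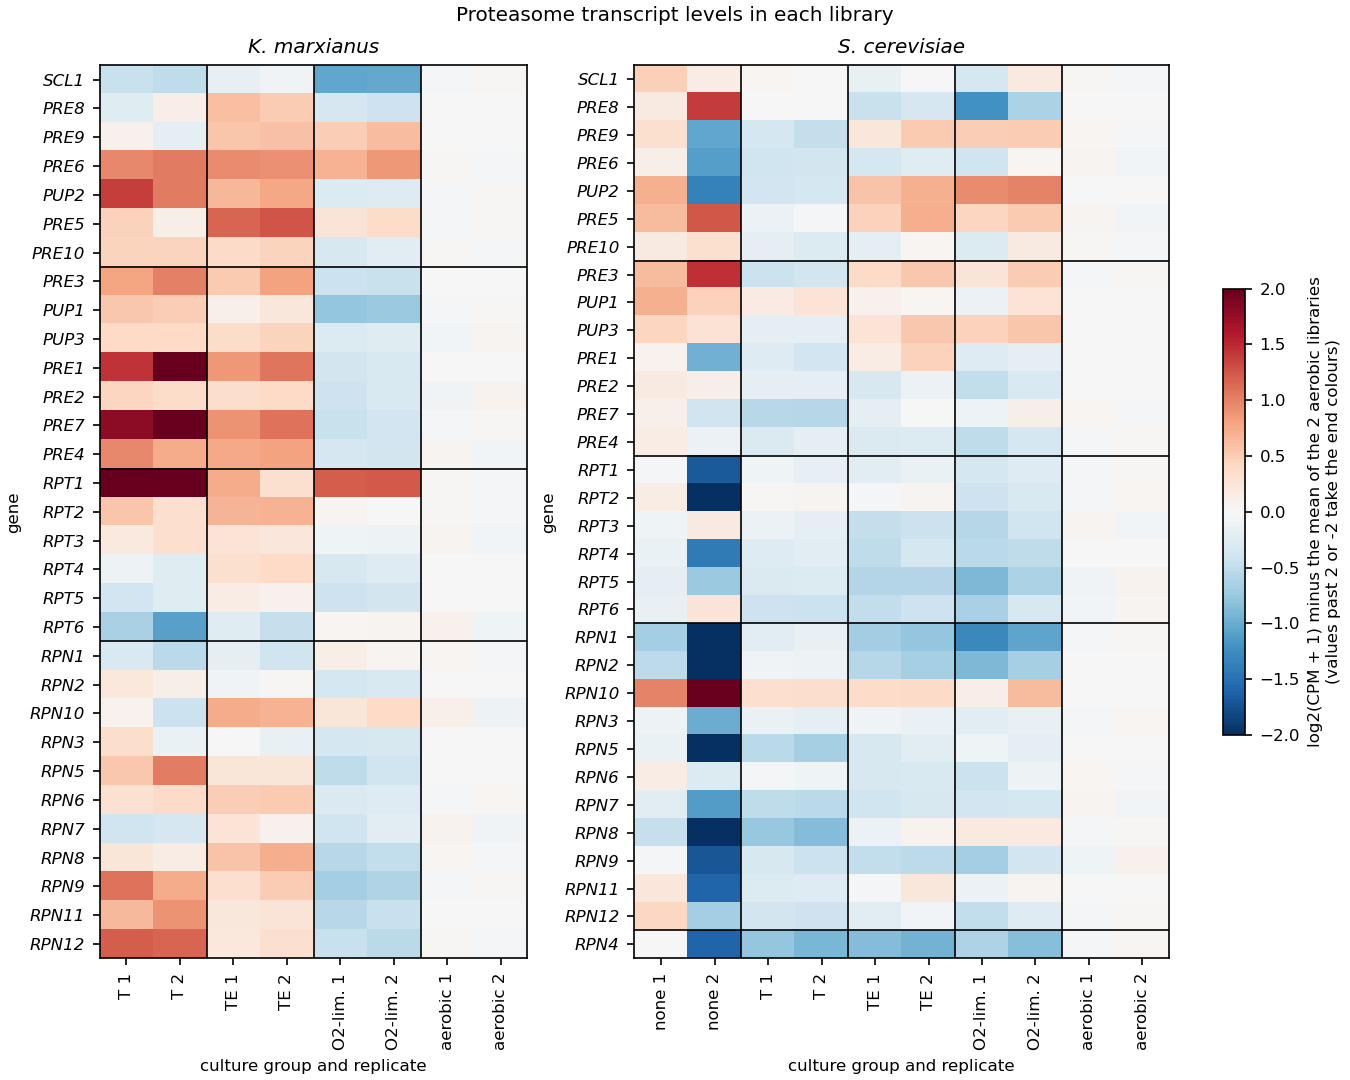
Levels of 31 subunit genes in 8 K. marxianus libraries and of 32 genes in 10 S. cerevisiae libraries, as log2(CPM + 1) minus the mean of the 2 aerobic libraries, with rows in the order alpha ring, beta ring, ATPase ring, other regulatory-particle genes and RPN4. In K. marxianus most rows are above aerobic in both TE libraries and below it in both O2-limited ones. In S. cerevisiae the column of none replicate 2 stands apart from that of none replicate 1.

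Subunit transcripts of K. marxianus were higher in anaerobic TE cultures than in O2-limited cultures on the same medium. Of 31 subunit genes, 24 rose and 2 fell (83.9% called at an adjusted p under 0.05), against 52% of all 5143 genes tested called in either direction. The 24 that rose are 77.4% of the subunit genes, against 25.7% of all genes. The median log2 fold change was 0.70 over the subunit genes and -0.02 over all genes. The calls came from all parts of the complex, with all 7 beta ring genes higher (median 1.11), 5 of 7 alpha ring genes, 4 of 6 ATPase genes and 8 of 11 other regulatory-particle genes.

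PRE7 (YBL041W), a beta ring subunit encoded at chr8:154388-155110 on the minus strand of the authors' CBS6556 annotation, had 470 and 531 CPM in TE cultures, against 183 and 192 CPM in O2-limited cultures. The log2 fold change was 1.42 ± 0.20 by edgeR's quasi-likelihood test (SE, Benjamini-Hochberg adjusted p = 0.00134). PRE1 (YER012W), another beta ring subunit, had 232 and 268 CPM in TE cultures, against 98.1 and 103 CPM in O2-limited cultures (log2 fold change 1.32 ± 0.20, SE, adjusted p = 0.00163). The groups did not overlap for either gene, but both were chosen as the highest of this comparison, so this is not a test.

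The genes that moved the other way were few. RPT1 (YKL145W) fell to 45.6 and 34.1 CPM in TE cultures, against 63.9 and 64.5 CPM in O2-limited cultures (log2 fold change -0.69 ± 0.15, SE, adjusted p = 0.00831). RPN1 (YHR027C), a large scaffold subunit of the base, fell to 282 and 242 CPM in TE cultures, against 346 and 332 CPM in O2-limited cultures, with an adjusted p of 0.0486. RPT6, another ATPase, had 184 and 159 CPM in TE cultures, against 225 and 228 CPM in O2-limited cultures, and was not called (-0.40 ± 0.17 on the log2 scale, SE, adjusted p = 0.0796). The remaining genes not called were PRE9 and PRE6 of the alpha ring and RPN10 and RPN3.

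Beside aerobic cultures, more K. marxianus subunit genes fell than rose under O2 limitation, and those called in TE cultures all rose. Both of those comparisons use the same aerobic libraries, and their values are given side by side. In O2-limited against aerobic cultures, 3 of 31 subunit genes rose and 11 fell (45.2%), against 47% of all genes called in either direction (22% higher), and the median was -0.33, against -0.08 over all genes. The 11 that fell are 35.5% of the subunit genes, against 25% of all genes. In TE against aerobic cultures, 19 of 31 rose and 0 fell, against 56.5% of all genes called either way and 27.9% called higher. The median there was 0.41, against -0.02 over all genes, and 12 of the 14 core genes rose, against 7 of the 17 regulatory-particle genes.

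SCL1 was lower in O2-limited than in aerobic cultures. It had 332 and 352 CPM in TE cultures, 179 and 182 CPM in O2-limited cultures and 366 and 375 CPM in aerobic cultures. For O2-limited against aerobic cultures the log2 fold change was -1.04 ± 0.10 (SE, adjusted p = 0.000254). For TE against aerobic cultures it was -0.12 ± 0.10 and not called (adjusted p = 0.361). PUP1, a beta ring subunit with a proteolytic site, had 160 and 163 CPM in O2-limited cultures, against 270 and 278 CPM in aerobic cultures (log2 fold change -0.76 ± 0.11, SE, adjusted p = 0.00121). The O2-limited libraries were the lowest of the 8 K. marxianus libraries for both genes, which were chosen as the lowest in O2-limited against aerobic cultures.

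PRE5, an alpha ring subunit, was the gene with the largest increase in TE against aerobic cultures. It had 380 and 405 CPM in TE cultures, against 166 and 171 CPM in aerobic cultures (log2 fold change 1.22 ± 0.14, SE, adjusted p = 0.000325). PRE7 followed with 0.996 on the log2 scale (adjusted p = 0.00471). At the other end, RPT6 and RPN1 had log2 fold changes of -0.35 ± 0.17 and -0.29 ± 0.13 (SE), neither of them called. RPT1 and PRE6, another alpha ring subunit, were the 2 highest in O2-limited against aerobic cultures. RPT1 had 63.9 and 64.5 CPM in O2-limited cultures, against 27.5 and 26.4 CPM in aerobic cultures (log2 fold change 1.25 ± 0.15, SE, adjusted p = 0.000695). PRE6 had 168 and 189 CPM in O2-limited cultures, against 105 and 101 CPM in aerobic cultures (log2 fold change 0.79 ± 0.11, SE, adjusted p = 0.00115).

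The count of 26 called genes in TE against O2-limited cultures ranged from 20 to 29 when single libraries were left out. The count of 14 in O2-limited against aerobic cultures depended on the libraries in the fit. It was 4 without aerobic replicate 1 or 2 or O2-limited replicate 2, 5 without O2-limited replicate 1, 9 without either TE replicate, 27 without either T replicate and 28 when the 2 groups were fitted alone. A fit with a replicate block on the title stem gave 23. The share of all genes called in each of these refits is not given here, so the counts are not set beside it. The count of 19 in TE against aerobic cultures was 11 when aerobic replicate 1 was left out and 12 when aerobic replicate 2 was, with all of them higher.

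**Figure D3:**
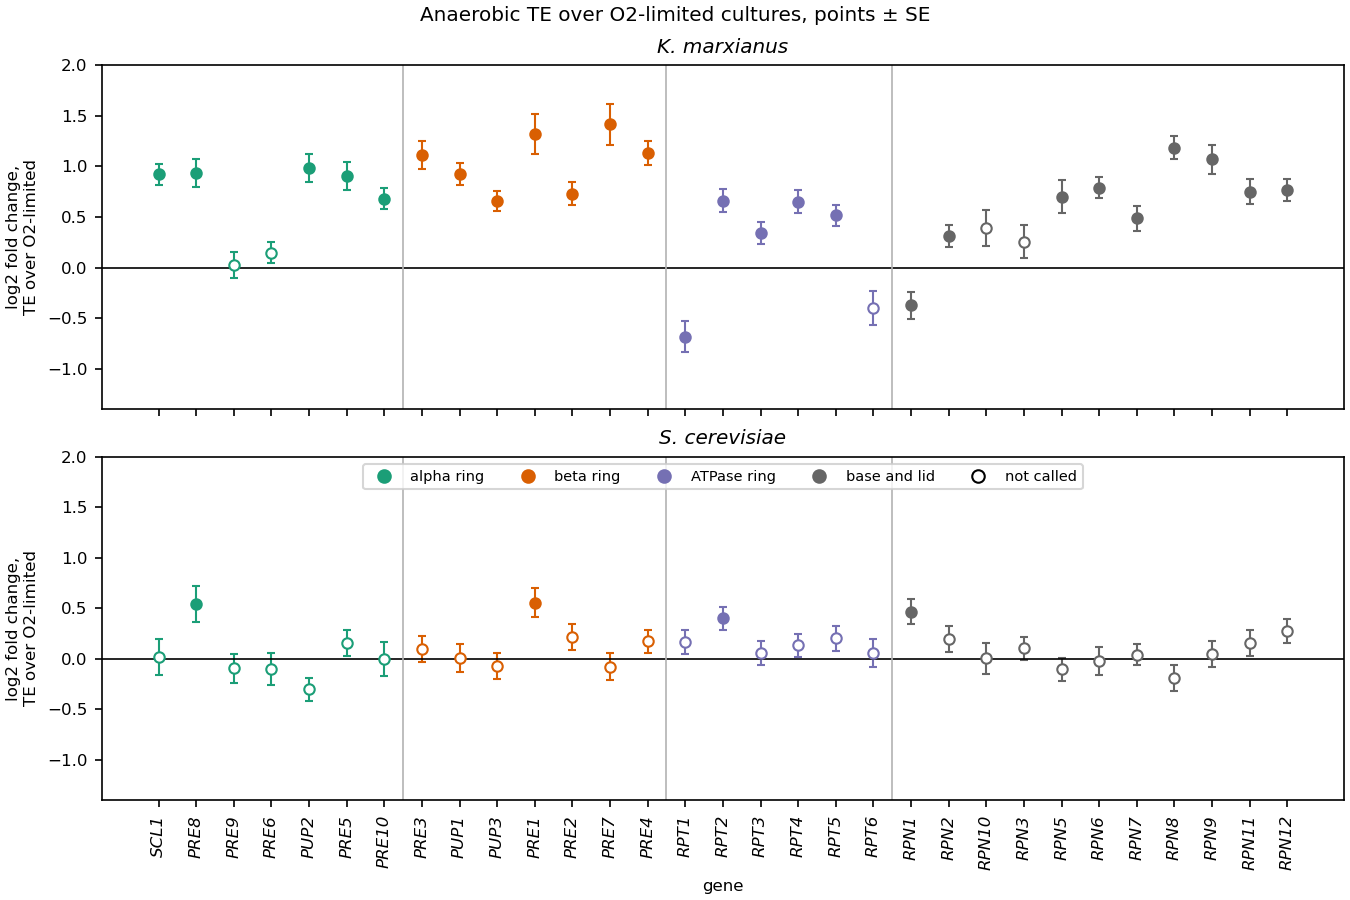
Log2 fold change of each subunit gene in anaerobic TE over O2-limited cultures with its SE, for K. marxianus (upper panel) and S. cerevisiae (lower panel), with filled points for genes called at an adjusted p under 0.05 and open points for the others. In K. marxianus 24 genes are called above 0 and RPT1 and RPN1 below it, while in S. cerevisiae 4 genes are called, all above 0.

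In S. cerevisiae the same comparison left most subunit genes uncalled. Of 31 subunit genes, 4 rose in TE against O2-limited cultures and 0 fell (12.9%), against 38.8% of 5849 genes called either way, 19.1% called higher and 19.7% called lower. The median log2 fold change was 0.06, against 0.02 over all genes. PRE1 had 409 and 512 CPM in TE cultures, against 311 and 329 CPM in O2-limited cultures (0.56 ± 0.14 on the log2 scale, SE, adjusted p = 0.0184). PRE8, an alpha ring subunit, had 185 and 200 CPM in TE cultures, against 108 and 162 CPM in O2-limited cultures (0.54 ± 0.18 on the log2 scale, SE, adjusted p = 0.0433). RPN1 and RPT2, an ATPase that helps to open the gate of the core, were the other genes called. The lowest were PUP2, an alpha ring subunit, at -0.30 ± 0.11 and RPN8, a lid subunit, at -0.19 ± 0.13 (log2 fold change, SE), neither of them called.

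The 4 calls were sensitive to the libraries. Leaving out O2-limited replicate 2 gave 9, leaving out TE replicate 2 gave 0, and leaving out TE replicate 1 or any aerobic or T replicate gave 1. The pair of groups fitted alone gave 0. A fit of all 10 S. cerevisiae libraries, in which the none replicates enter the shared spread, called 0 of 32 members in each of the 4 comparisons that use 8 libraries here, against 2.11% of all genes in TE against O2-limited, 14.1% in O2-limited against aerobic, 13.1% in TE against aerobic and 5.04% in T against TE cultures. At an unadjusted p under 0.05 that edgeR fit gave 0, 3, 1 and 3 members in the same order, and DESeq2 on 8 libraries called 5, 21, 14 and 14. Fold changes of the members moved by at most 0.0472 on the log2 scale between the fits, and the shared biological coefficient of variation was 12.8% with 8 libraries and 32.1% with 10.

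Against aerobic cultures, more S. cerevisiae regulatory-particle genes fell than rose, while the share of core genes that rose was near that of all genes. In both comparisons 7 core genes had positive and 7 had negative log2 fold changes. In O2-limited against aerobic cultures 6 of 31 subunit genes rose and 13 fell (61.3%), against 62% of all genes called either way, and the median was -0.20, against -0.02 over all genes. Of the 17 regulatory-particle genes 10 fell (58.8%) and 1 rose, against 30.8% of all genes called lower. All 6 ATPase genes had negative values and 5 of them were called (median -0.47). Of the 14 core genes, 5 rose (35.7%, against 31.2% of all genes) and 3 fell (21.4%, against 30.8%), with a median of 0.01. In TE against aerobic cultures, 6 subunit genes rose and 8 fell (45.2%), against 58.2% of all genes called, and the 8 that fell (25.8%, against 27.1% of all genes) were all regulatory-particle genes, 4 of them ATPases. Of the 14 core genes 5 rose (35.7%, against 31.2% of all genes) and 0 fell, with a median of 0.05. The aerobic libraries are shared by both comparisons.

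RPN1 had 193 and 228 CPM in O2-limited cultures and 292 and 278 CPM in TE cultures, against 465 and 485 CPM in aerobic cultures. The log2 fold change of RPN1 was -1.16 ± 0.13 for O2-limited cultures (SE, adjusted p = 0.000186) and -0.69 ± 0.13 for TE cultures (adjusted p = 0.00224). RPN2, the other large scaffold subunit of the base, had 269 and 317 CPM in O2-limited cultures and 339 and 317 CPM in TE cultures, against 505 and 499.7 CPM in aerobic cultures (adjusted p = 0.00131 for O2-limited and 0.00575 for TE). Both scaffold genes, chosen as the lowest in TE against aerobic cultures, were below aerobic in every library of these groups. PRE8, from the core, had 108 and 162 CPM in O2-limited cultures, against 251 and 252 CPM in aerobic cultures (log2 fold change -0.88 ± 0.18, SE, adjusted p = 0.00336).

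PUP2 (YGR253C) moved in the opposite direction. It had 499 and 518 CPM in O2-limited cultures and 385 and 424 CPM in TE cultures, against 262 and 257 CPM in aerobic cultures. PUP2 had a log2 fold change of 0.99 ± 0.11 for O2-limited cultures (SE, adjusted p = 0.00024) and 0.68 ± 0.11 for TE cultures (adjusted p = 0.00142). PUP3, a beta ring subunit, was the next highest in O2-limited cultures, with 442 and 470 CPM, against 320 and 317 CPM in aerobic cultures (0.53 ± 0.13 on the log2 scale, SE, adjusted p = 0.00835). PRE5 was the next highest in TE cultures, with 346 and 414 CPM, against 258 and 242 CPM in aerobic cultures (0.65 ± 0.13 on the log2 scale, SE, adjusted p = 0.00335). All of these values lay above the aerobic range, but the genes were chosen as the highest, so this is not a test.

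The 20 members called in O2-limited against aerobic cultures, RPN4 included, were 10 without aerobic replicate 1, 9 without aerobic replicate 2 and 11 with the 2 groups alone. The 15 in TE against aerobic cultures were 7 without either aerobic replicate or TE replicate 2, and 9 without T replicate 2.

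Gene length moved with these S. cerevisiae changes. Core genes are shorter than most regulatory-particle genes, and across 31 subunit genes the log2 fold change had a Pearson's r with log2 gene length of -0.63 in O2-limited against aerobic cultures and -0.69 in TE against aerobic cultures. Across all genes tested the r was -0.39 and -0.26, and genes are not independent replicates. In O2-limited against aerobic cultures the 17 subunit genes under 1 kb had a median of -0.01, against 0.50 for all genes of that length, and the 12 subunit genes of 1 to 2 kb had -0.35, against -0.17. The 2 longest, RPN1 and RPN2, had a median of -0.96, against -0.40 for all genes over 2 kb. The subunit genes were thus below genes of their own length in all 3 classes, although the longest class rests on 2 genes. The replicates of the TE group differed along length as well, with a Spearman's rho of 0.63 over the subunit genes and 0.54 over all genes. The part of length in the split between core and regulatory-particle genes was not tested.

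**Figure D4:**
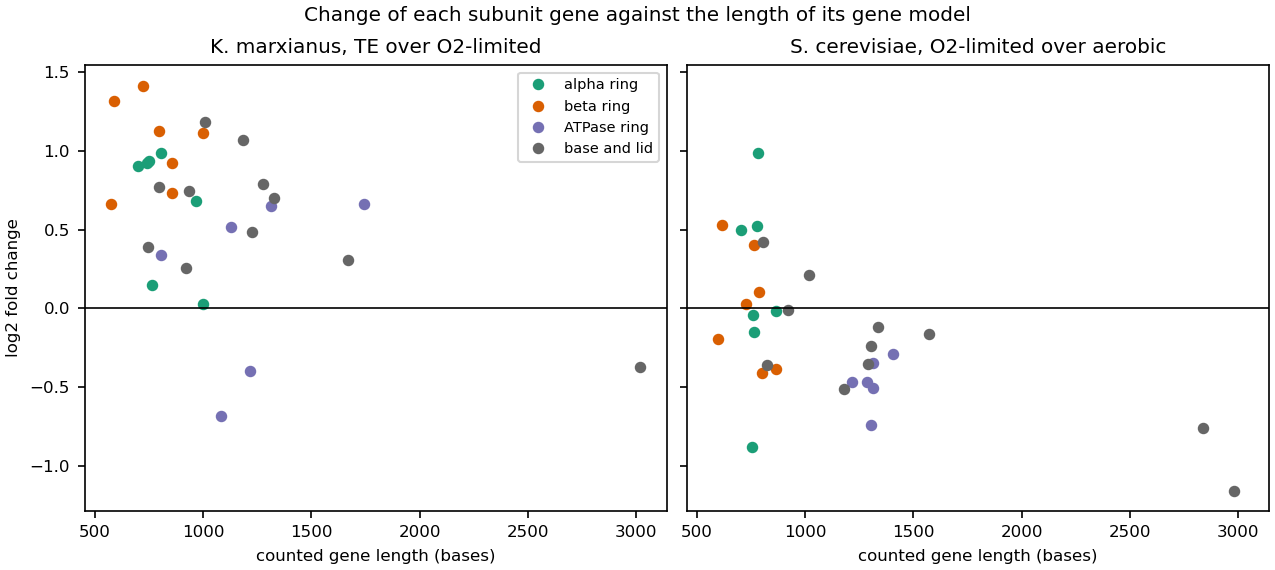
Log2 fold change of each of 31 subunit genes against the counted length of its gene model in bases, for K. marxianus TE over O2-limited cultures (left) and S. cerevisiae O2-limited over aerobic cultures (right). Pearson's r with log2 length is -0.46 in the left panel and -0.63 in the right panel, where the 2 longest genes, RPN1 and RPN2, are near the bottom.

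In K. marxianus TE against O2-limited cultures, Pearson's r with log2 gene length was -0.46 over the subunit genes and -0.27 over all genes. In S. cerevisiae it was 0.20 and 0.16 for the same comparison. The 18 subunit genes under 1 kb had a median of 0.84, against 0.35 for all genes of that length, and the 12 of 1 to 2 kb had 0.59, against -0.10. The 1 subunit gene over 2 kb, RPN1, had -0.37, against -0.35 for all genes over 2 kb. The classes follow the counted models, and RPN2 falls in that of 1 to 2 kb here, with 1671 bases against 2838 in S. cerevisiae. After the trend of all genes on length was subtracted, the median of the subunit genes was 0.57. This alternative was chosen after seeing the data.

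Changes between aerobic, O2-limited and TE cultures were compared between the species in 1 fit of 16 libraries over 3885 genes matched 1 to 1. Only TE against O2-limited cultures had the same medium, and the aerobic cultures differed in medium as well as in oxygen supply. Run and group cannot be told apart in any of these comparisons. In TE against O2-limited cultures the log2 fold change was higher in K. marxianus for 18 of 31 subunit genes and lower for 2 (64.5%), against 46.6% of matched genes called either way and 22.4% called higher. The median difference was 0.50, and all 7 beta ring genes were among the 18. PRE7 differed by 1.47 ± 0.26 on the log2 scale (SE, adjusted p = 0.000717), with changes of 1.42 in K. marxianus and -0.08 in S. cerevisiae. RPN8 differed by 1.35 ± 0.16 (SE, adjusted p = 5.22e-05), with 1.19 in K. marxianus and -0.19 in S. cerevisiae. RPT1 and RPN1 differed the other way, by -0.87 ± 0.19 and -0.86 ± 0.18 (SE). The count of 20 ranged from 14 to 25 when single libraries were left out.

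In TE against aerobic cultures the change was higher in K. marxianus for 16 of 31 subunit genes and lower for 0 (51.6%), against 44.8% of matched genes called either way and 21.9% called higher, with a median difference of 0.51. Of these 16, 10 were regulatory-particle genes, among them 5 of the 6 ATPases. PRE6 differed most, by 1.16 ± 0.20 (SE, adjusted p = 0.000483), with 0.94 in K. marxianus and -0.25 in S. cerevisiae on the log2 scale. In O2-limited against aerobic cultures the count was 11 of 31 (35.5%), a share below the 56.4% of matched genes. There 4 genes were higher in K. marxianus (12.9%, against 28.2% of matched genes) and 7 lower (22.6%, against 28.2%). RPT1 differed by 1.54 ± 0.19 and PUP2 by -1.26 ± 0.17 (log2, SE). These 3 differences share groups and are not independent of each other.

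Ergosterol was left out of the anaerobic medium in T against TE cultures, and here subunit genes moved in both directions. In K. marxianus, 9 of 31 rose and 10 fell (61.3%), against 37.3% of all genes called either way, with a median of 0.02. RPT1 had 113 and 119 CPM in T cultures, against 45.6 and 34.1 CPM in TE cultures (log2 fold change 1.54 ± 0.15, SE, adjusted p = 0.00171). PRE7 had 869 and 1320 CPM in T cultures, against 470 and 531 CPM in TE cultures (1.13 ± 0.20, SE, adjusted p = 0.0064). PRE5 had 231 and 183 CPM in T cultures, against 380 and 405 CPM in TE cultures (-0.92 ± 0.14, SE, adjusted p = 0.00372). RPN10 had 120 and 84.7 CPM in T cultures, against 192 and 185 CPM in TE cultures (-0.88 ± 0.18, SE, adjusted p = 0.00952). The groups did not overlap for any of these 4 genes, which were chosen as the ends of the range, so this is not a test. The coefficient of variation of the level per kilobase over the 31 genes was 81.0% ± 17.8 in T and 46.0% ± 2.96 in TE cultures (SD, n = 2 each).

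These K. marxianus calls rested on the spread shared over 4 groups. The 2 groups fitted alone gave 0 calls, and DESeq2 on all 8 libraries gave 19. The count was 3 without TE replicate 1, 5 without TE replicate 2, 12 without aerobic replicate 1 or O2-limited replicate 1, and 11 without aerobic replicate 2 or O2-limited replicate 2. The T replicates also differed more from each other than the replicates of the other K. marxianus groups, with 9.37% of all genes at least 1 log2 unit apart.

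In S. cerevisiae T against TE cultures, 2 of 31 subunit genes rose and 10 fell (38.7%), against 50.2% of all genes called either way. The 10 that fell are 32.3% of the subunit genes, against 26.8% of all genes, and the 2 that rose are 6.45%, against 23.4%. The genes that rose were RPN1 and RPN2, and 7 of the 10 that fell were core genes. PUP2 had 198 and 203 CPM in T cultures, against 385 and 424 CPM in TE cultures (log2 fold change -1.01 ± 0.12, SE, adjusted p = 0.000465). PRE3, the beta ring subunit with caspase-like activity, had 187 and 195 CPM in T cultures, against 327 and 364 CPM in TE cultures (-0.85 ± 0.13, SE, adjusted p = 0.00143). RPN1 had 404 and 430.2 CPM in T cultures, against 292 and 278 CPM in TE cultures (0.55 ± 0.13, SE, adjusted p = 0.0081). RPN2 had 479 and 466 CPM in T cultures, against 339 and 317 CPM in TE cultures (0.53 ± 0.13, SE, adjusted p = 0.00979). The 6 ATPase genes had values between 0.04 and 0.31 and none of them was called. Pearson's r with log2 gene length was 0.62 over the subunit genes and 0.45 over all genes, and its part in these calls was not tested. The count was 7 without T replicate 1, 5 without T replicate 2 and 6 without TE replicate 2.

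In this response 14 of 31 genes differed between the species (45.2%), a share below the 50.5% of matched genes. Of the 31 genes, 9 were higher in K. marxianus (29%, against 26.2% of matched genes) and 5 lower (16.1%, against 24.3%). PRE7 differed by 1.61 ± 0.26 and PUP2 by 1.52 ± 0.17 (log2, SE), while PRE8 differed by -0.96 ± 0.25 and RPN10 by -0.84 ± 0.24 (log2, SE). PUP2 changed by 0.50 in K. marxianus and -1.01 in S. cerevisiae.

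Removing Tween 80 as well was tested in S. cerevisiae with 2 libraries that stood apart from each other. In none against T cultures, 2 of 31 subunit genes were called, both higher (6.45%), against 11.3% of 5868 genes called either way, 8.37% higher and 2.95% lower. In none against TE cultures 0 were called by edgeR, against 8.67% of all genes, 6.1% higher and 2.57% lower. There 4 of the 32 members had an unadjusted p under 0.05, and DESeq2 called 6. PRE3 had 391 and 690.2 CPM in none cultures, against 187 and 195 CPM in T cultures (log2 fold change 1.499 ± 0.303, SE, adjusted p = 0.029). PRE5 had 386 and 595 CPM in none cultures, against 231 and 243 CPM in T cultures (1.05 ± 0.27, SE, adjusted p = 0.0479).

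The other genes at the ends of the range were not called. RPN10 had 248 and 927 CPM in none cultures, against 157 and 159 CPM in T and 161 and 161 CPM in TE cultures (adjusted p = 0.0591 and 0.0708). PRE8 had 284 and 664 CPM in none cultures, against 185 and 200.02 CPM in TE cultures (adjusted p = 0.0809). RPN8 had 317 and 22.7 CPM in none cultures, against 401 and 459 CPM in TE cultures, and RPN5, another lid subunit, had 361 and 42.5 CPM, against 319 and 342 CPM. RPN1 had 295 and 105 CPM in none cultures, against 404 and 430.2 CPM in T cultures, and RPN2 had 348 and 107 CPM, against 479 and 466 CPM (adjusted p = 0.12 and 0.15). For RPN8 and RPN5 the replicates of the none group were more than 3 log2 units apart.

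The none comparisons changed with which replicate was kept. Without none replicate 1, the median log2 fold change of the members was -0.54 against T and -0.64 against TE cultures. Without none replicate 2 the medians were 0.30 and 0.14. Leaving out a library of any other group gave 0 calls against T. None replicate 2 has 2849618 counts in all, and its subunit genes took 0.241% of the CPM per kb of all genes, against 1.01% in none replicate 1. The summed CPM of the subunit genes differed less, with 8743 in none replicate 2 and 11388 in none replicate 1.

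RPN4 (YDL020C), encoded at chr4:414784-416379 on the minus strand of the authors' CEN.PK113-7D annotation, was lower in each O2-limited and anaerobic group with a supplement than in aerobic cultures. It had 227 and 206 CPM in T cultures, 214 and 202 CPM in TE cultures and 255 and 216 CPM in O2-limited cultures, against 378 and 402 CPM in aerobic cultures. None of these 6 libraries overlapped the aerobic range. The log2 fold change was -0.71 ± 0.12 for O2-limited against aerobic (SE, adjusted p = 0.00166) and -0.86 ± 0.12 for TE against aerobic cultures (SE, adjusted p = 0.000693). It ranged from -0.83 to -0.61 and from -0.95 to -0.83 when single libraries were left out. In the fit of all 10 libraries the fold changes were -0.73 and -0.91 and neither was called (adjusted p = 0.338 and 0.247).

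RPN4 was not called between groups without an aerobic arm. Its log2 fold change was -0.15 ± 0.12 for TE against O2-limited cultures (SE, adjusted p = 0.363) and 0.06 ± 0.12 for T against TE cultures (adjusted p = 0.708). In the none group RPN4 had 394 and 128 CPM, so that replicate 1 was at the aerobic level and replicate 2 below every other library. Its log2 fold change against T cultures was 0.28 ± 0.45 (SE, adjusted p = 0.658), with -0.77 without none replicate 1 and 0.77 without none replicate 2. Against TE cultures it was 0.33 ± 0.45 (adjusted p = 0.597), with -0.71 without none replicate 1 and 0.84 without none replicate 2.

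**Figure D5:**
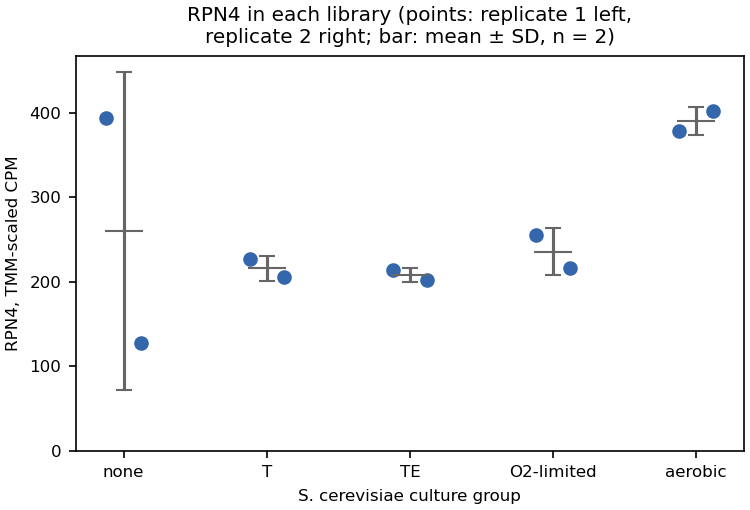
TMM-scaled CPM of RPN4 in 10 S. cerevisiae libraries by culture group, with 1 point per library and a bar for the mean ± SD (n = 2). The aerobic libraries (378 and 402 CPM) lie above both libraries of the O2-limited, TE and T groups, and the none libraries are at 394 and 128 CPM.

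Of the 4 factors known in S. cerevisiae to act on RPN4 transcription, YAP1, PDR1 and PDR3 fell in O2-limited against aerobic and TE against aerobic cultures, where 30.8% and 27.1% of all genes were called lower. With all 10 libraries in the fit, 2 of the 4 (PDR1 and PDR3) were called lower in O2-limited and 0 in TE against aerobic cultures. YAP1, the regulator of the oxidative stress response, had 205 and 197 CPM in TE and 159 and 183 CPM in O2-limited cultures, against 414 and 434 CPM in aerobic cultures (log2 fold change -1.03 ± 0.11, SE, adjusted p = 0.000184 for TE). PDR1, a regulator of drug resistance genes, had 59.04 and 62.9 CPM in O2-limited cultures, against 143.5 and 164 CPM in aerobic cultures (-1.32 ± 0.13, SE, adjusted p = 9.62e-05). HSF1, the heat shock factor, rose by 0.40 there (adjusted p = 0.0175) and was not called in TE cultures. In K. marxianus, where only YAP1 and HSF1 of these had a row, YAP1 had 286 and 233 CPM in TE and 255 and 234 CPM in O2-limited cultures, against 766 and 693 CPM in aerobic cultures (-1.49 ± 0.17, SE, adjusted p = 0.000315 for TE). K. marxianus HSF1 fell to 168 and 143 CPM in TE cultures, against 341 and 347 CPM in O2-limited cultures (-1.15 ± 0.16, SE, adjusted p = 0.00131).

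Other proteasome genes, 16 genes of assembly chaperones, further subunits and associated proteins, were counted in the same way. In K. marxianus TE against O2-limited cultures, 7 of 15 tested rose and 1 fell, against 25.7% of all genes called higher. IRC25, a chaperone of alpha ring assembly, had 347 and 451 CPM in TE cultures, against 45.8 and 43.3 CPM in O2-limited and 33.8 and 34.6 CPM in aerobic cultures, and 801 and 1354 CPM in T cultures. In TE against O2-limited cultures IRC25 rose by 3.16 ± 0.27 on the log2 scale (SE, adjusted p = 0.000181), more than that of any subunit gene. In S. cerevisiae IRC25 had 52.0 and 61.0 CPM in TE cultures, against 44.2 and 55.8 CPM in O2-limited cultures, and the species differed by 2.94 ± 0.32 (log2, SE, adjusted p = 2.84e-05). FUB1, a proteasome-binding protein, was the 1 gene that fell (-0.45 ± 0.14, SE, adjusted p = 0.0337).

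In S. cerevisiae O2-limited against aerobic cultures, 5 of these 16 genes rose and 6 fell, against 62% of all genes called. With all 10 libraries in the fit, 1 of them fell and 0 rose, against 14.1% of all genes called. SEM1, a small lid subunit, rose by 0.995 on the log2 scale (adjusted p = 0.00182) and BLM10, an alternative activator of the core, fell by 1.005 (adjusted p = 0.000608). Of the 16 promoters, 1, that of ECM29, held the 9 letters.

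Genes of ubiquitin conjugation and delivery act before the proteasome. In K. marxianus TE against O2-limited cultures, 7 of 21 rose and 3 fell, against 25.7% of all genes called higher, and their median was 0.06 on the log2 scale. The highest was DDI1, a shuttle protein (1.00 ± 0.12, SE, adjusted p = 0.000578), and the lowest MUB1, a partner of the ligase Ubr2 that targets Rpn4 (-1.37 ± 0.22, SE, adjusted p = 0.00197). In S. cerevisiae, 16 of 24 fell and 5 rose in O2-limited against aerobic cultures (87.5%), against 62% of all genes called. With all 10 libraries in the fit, 3 fell and 2 rose, against 14.1% of all genes called. UBA1, the ubiquitin-activating enzyme, fell most (-1.62 ± 0.13, SE, adjusted p = 4.01e-05). DSK2, a shuttle protein, rose most (1.39 ± 0.19, SE, adjusted p = 0.000542). Of the 24 promoters, 3 held the 9 letters (12.5%, against 1.2% of all promoters), those of UBI4, UBA1 and CDC48.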

How the data were processed

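The deposited files used were 1 table per species of raw counts for each gene. According to the file headers, they come from featureCounts 1.6.0 without a strand option and without multi-mapping reads or reads over several genes, so sense and antisense reads of these deposited counts cannot be separated. Per the submitters' processing notes, Bowtie 1.2.1.1, SAMtools 1.3.1 and edgeR 3.28.1 were also used. Coordinates are those of the authors' annotations. Members were matched through the S288C entry in the authors' deposited tables, whose log2 fold changes differed from those computed here by at most 0.00869 (K. marxianus) and 0.0193 (S. cerevisiae) in O2-limited against aerobic cultures.

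Counts were analysed in R 4.3.3 with edgeR 4.0.16: filterByExpr, TMM scaling and a quasi-likelihood fit of group means over 8 libraries per species (4 residual degrees of freedom), over 10 S. cerevisiae libraries for the none comparisons (5) and over 16 for the species differences (8). CPM of S. cerevisiae are scaled over 10 libraries. A gene was called where its Benjamini-Hochberg adjusted p, taken over all genes tested, was under 0.05. SE stands for the size of the log2 fold change over the square root of its F. With 2 cultures a group, an exact permutation test of a single gene cannot reach this threshold. Alternatives were DESeq2 1.42.0, RLE scaling, no filter, other sets of libraries and a replicate block on the title stem. The share of all genes called is given for the main fits and the fit of all 10 libraries. For the other alternatives it is not given, so their counts of members called are not set beside all genes. Full values are given for RPN4 and, per comparison, for the 2 highest and 2 lowest subunit genes. The members, lists and fits were chosen with earlier results of these data known.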

Additional observations from a re-analysis of the deposited data

Results flagged for a closer look

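The change of subunit transcripts under the same contrast differed between the species, by a test of the difference itself, for 11 of 31 subunit genes in O2-limited against aerobic cultures (35.5%, against 56.4% of all matched genes), 16 in TE against aerobic (51.6%, against 44.8%), 20 in TE against O2-limited (64.5%, against 46.6%) and 14 in T against TE cultures (45.2%, against 50.5%). The first and the last of these shares lie below those of all matched genes. Values are the log2 fold change in K. marxianus minus that in S. cerevisiae.

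In O2-limited against aerobic cultures the difference was 1.54 for RPT1, 1.23 for RPN1, -1.0 for SCL1 and -1.26 for PUP2. In TE against aerobic cultures it was 1.16 for PRE6 and 1.02 for PRE7. In TE against O2-limited cultures it was 1.47 for PRE7, 1.35 for RPN8, -0.86 for RPN1 and -0.87 for RPT1. In T against TE cultures it was 1.61 for PRE7, 1.52 for PUP2, -0.84 for RPN10 and -0.96 for PRE8.

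RPT1 is the subunit gene with the lowest aerobic level in K. marxianus, and its model there has 77.3% of the S. cerevisiae length. The models of RPN3 (58.6%), RPN2 (58.9%) and RPT3 (62.7%) are shorter still beside their S. cerevisiae genes. The part of the gene models in these differences was not tested.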

How the results depend on the processing

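With all 10 S. cerevisiae libraries in the fit, the members called were 0 in each of the 4 comparisons without a none arm, and RPN4 was no longer called at -0.73 and -0.91 against aerobic cultures (adjusted p = 0.338 and 0.247). With the 2 groups alone, K. marxianus O2-limited against aerobic gave 28 calls and a median of -0.26, T against TE gave 0, and S. cerevisiae O2-limited against aerobic gave 11, TE against O2-limited 0 and none against T 0. In none against T the calls were 5 by DESeq2, 1 with RLE scaling and 1 with no filter, and in none against TE 6 by DESeq2. Less the trend on gene length, which was chosen after seeing the data, the medians were -0.24, 0.30, 0.57 and -0.0659 for K. marxianus O2-limited against aerobic, for TE set against aerobic, for TE set against O2-limited and for T set against TE cultures, and -0.30 for the 32 S. cerevisiae members in TE against aerobic. In none against T the median of these 32 turned to -0.17 with that trend removed, against 0.21 without. The cause of these shifts was not tested.

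Leaving out 1 library at a time, the calls ran from 4 to 27, 11 to 25, 20 to 29 and 3 to 21 in the same 4 K. marxianus comparisons, with medians from -0.33 to -0.27, 0.40 to 0.52, 0.68 to 0.75 and -0.00376 to 0.0763. In S. cerevisiae, in that order, they ran from 9 to 22, 7 to 21, 0 to 9 and 5 to 17, with medians from -0.37 to -0.16, -0.19 to -0.06, -0.04 to 0.20 and -0.03 to 0.03. In none against T and none against TE they ran from 0 to 24 and 0 to 23, with medians from -0.54 to 0.30 and -0.64 to 0.14. Between species they ran from 9 to 16, 11 to 18, 14 to 25 and 14 to 19, with medians from -0.20 to 0.01, 0.38 to 0.52, 0.40 to 0.64 and 0.0393 to 0.19. RPN4 turned to -0.00600 in T against TE without T replicate 1, within a range up to 0.14, and to -0.77 and -0.71 without none replicate 1, within ranges up to 0.77 and 0.84. RPN4 ran from -0.28 to -0.05 in TE against O2-limited cultures.

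The replicate block on the title stem gave 23 calls in K. marxianus O2-limited against aerobic, 22 in TE against aerobic, 28 in TE against O2-limited and 19 in T against TE, and 3 and 0 in none against T and TE. Replicate differences correlated at 0.196 (K. marxianus T and TE) and -0.092 (S. cerevisiae none and TE), so the stems are not shown to pair the cultures. No RPN4 value can be given for K. marxianus or between species, since no K. marxianus row was matched. None replicate 2 had the fewest counts (2849618).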
